A study of Mus musculus with 8 samples.

Results

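The genes described here are the mouse Zfp genes, zinc finger genes whose symbol is Zfp followed by a digit, in medial prefrontal cortex (mPFC) tissue. RNA came from 8 adult male mice on a C57Bl/6J background, all labelled naive. In 4 conditional knockouts (CaKO, CamK2A-Cre;Gpr158flox/flox), Cre recombinase under the CamK2A promoter, which is active in forebrain excitatory neurons, deletes the floxed gene of the orphan receptor GPR158. The other 4 were littermate controls with both floxed alleles and no Cre (Gpr158flox/flox). All 8 mice therefore carry the floxed gene, and the tissue also holds cells without CamK2A promoter activity. The series asks which transcripts differ when these neurons lack GPR158. Members were the rows of the authors' deposited table that matched a protein-coding GENCODE M21 (GRCm38) gene of that name by chromosome, start, end and strand. This gave 29 genes out of 2372 rows.

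The authors' deposited table lists only genes with an unadjusted p below 0.05, so each of the 29 genes passed that limit before it could be found. Of the 394 protein-coding Zfp genes in the annotation, 7.36% were listed, against 8.90% of all 22028 protein-coding genes (1961 listed). How many of the others were tested is not known, and they have no value here.

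Zinc finger proteins of the C2H2 type fold short loops around a zinc ion, held by a pair of cysteines and a pair of histidines, and read DNA with arrays of such fingers. In the largest subfamily the fingers follow a Krüppel-associated box (KRAB), which recruits the corepressor TRIM28 and, through it, histone methylation and silencing. KRAB zinc finger genes stand in clusters of recent duplicates and are best known for silencing retrotransposons, whereas zinc finger proteins without the box include activators, chromatin factors and RNA-binding proteins.

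The direction of change is described below by whether a gene encodes a KRAB box, so the stretch of coding sequence that was searched for is shown first. A fixed pattern for the start of the box was found in the translated coding sequence of 12 of the 29 genes. A wider pattern, chosen after the values were seen, allows other residues within and at the end of the searched stretch and added Zfp108, Zfp213 and Zfp605, to give 15 genes. These are 33 bases of coding sequence, 5′ to 3′ on the gene's own strand. They are from 4 genes that were higher in CaKO, 3 that were lower and the pair that shared the fewest bases. Capitals mark the first 2 and the last 2 codons of the searched stretch, and the positions are on GRCm38 (GENCODE M21 transcripts).
Zfp780b, exon 4, chr7:27973795-27973827, minus strand: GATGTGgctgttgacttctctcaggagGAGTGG
Zfp850, exon 4, chr7:28007390-28007422, minus strand: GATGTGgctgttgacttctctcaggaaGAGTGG
Zfp931, exon 2, chr2:178069899-178069931, minus strand: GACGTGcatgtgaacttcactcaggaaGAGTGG
Zfp941, exon 2, chr7:140818664-140818696, minus strand: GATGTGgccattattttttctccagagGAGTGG
Zfp566, exon 3, chr7:30081167-30081199, minus strand: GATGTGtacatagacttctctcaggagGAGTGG
Zfp809, exon 2, chr9:22235038-22235070, plus strand: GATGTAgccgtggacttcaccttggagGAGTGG
Zfp605, exon 3, chr5:110123772-110123804, plus strand: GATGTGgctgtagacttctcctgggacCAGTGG
Zfp108, exon 3, chr7:24258471-24258503, plus strand: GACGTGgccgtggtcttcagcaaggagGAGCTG
Zfp213, exon 5, chr17:23559456-23559488, minus strand: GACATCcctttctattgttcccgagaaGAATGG
Zfp108 and Zfp213, the pair that shared the fewest bases (13 of 33), were both higher. Zfp108 shared 26 with Zfp719. Over the 15 boxes, 2 genes shared between 13 and 32 of the 33 bases (median 24 over 105 pairs). The highest value, 32, was reached by 2 pairs, the neighbours Zfp780b and Zfp850 and the pair Zfp931 and Zfp937 on chromosome 2.

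The 29 listed Zfp genes divided between higher and lower in CaKO much as all rows did, and most differences were small. Of the 29, the authors' deposited table puts 13 higher and 16 lower, and their median log2 fold change was -0.21 against -0.23 over all 2372 rows. The share of higher genes was 44.8%, and that over all rows was 44.4%. Of the 29 genes, 27 entered the authors' adjustment over 12938 genes, 13 of them higher and 14 lower. In the same comparison 7.14% of the 12938 genes were listed as higher and 8.68% as lower. At an adjusted p below 0.05 no Zfp gene rose and 2 fell, Zfp408 and Zfp768. Over all 2372 rows, which passed the same listing, 164 rose and 255 fell. These are 1.27% and 1.97% of the 12938 genes, which were not selected by p. All 13 higher genes have an unadjusted p below 0.05, since the listing required it. The mPFC is a mixture of cells, so fewer cells of a type and less RNA per cell cannot be told apart in these values.

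**Figure D1:**
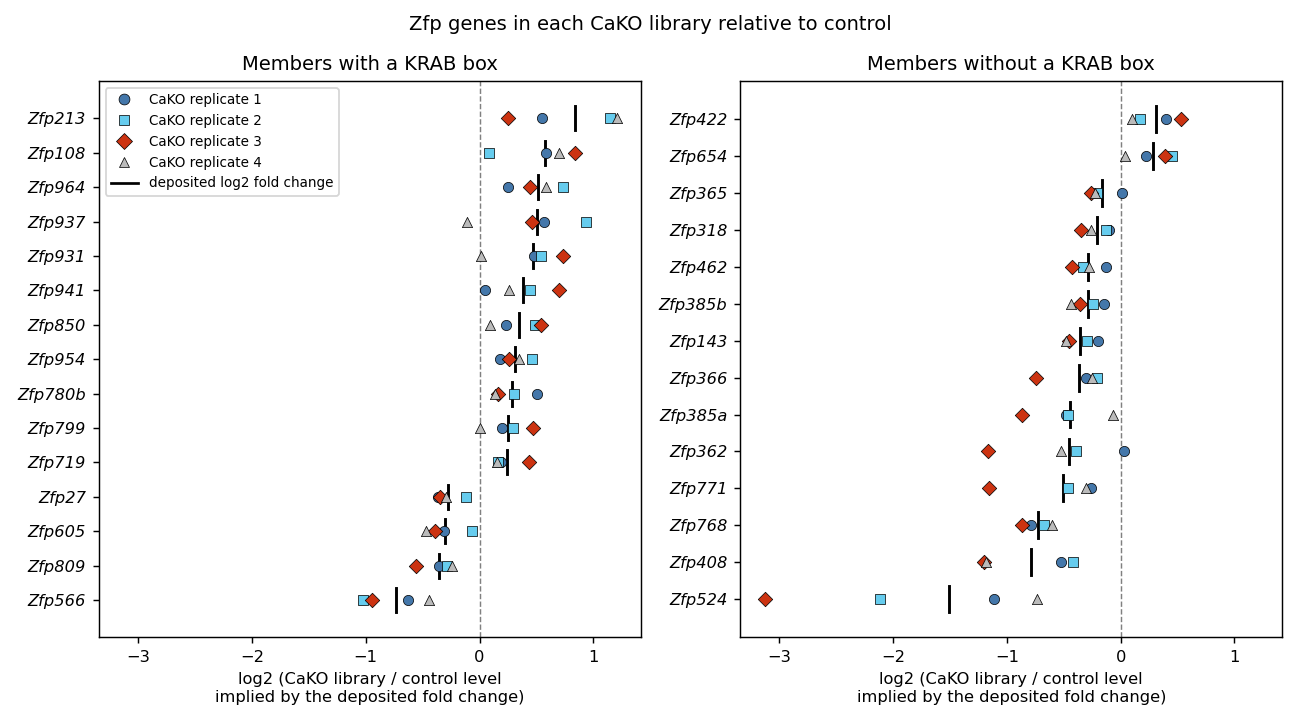
Each of the 4 CaKO libraries as the log2 ratio of its normalised count to the control level implied by the deposited fold change, for the 15 genes with a KRAB box (left, wider pattern) and the 14 without (right). Black bars are the deposited log2 fold changes, and the dashed line is the implied control level. Bars lie right of the line for 11 genes on the left and 2 on the right.

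The genes with a KRAB box were mostly higher and those without it mostly lower. Of the 15 genes with a box by the wider pattern, the authors' deposited table puts 11 higher and 4 lower, and their median log2 fold change was 0.32. Of the 14 genes without it, 2 were higher and 12 lower, with a median of -0.36. Relative to the implied control level, the median log2 ratio of the genes with a box was 0.20, 0.31, 0.44 and 0.09 in replicates 1 to 4. That of the genes without a box was -0.17, -0.31, -0.60 and -0.29. Both groups were farthest from the control level in replicate 3, and their medians kept opposite signs in each library. The signs are no separate support for the split, since the listing and the implied control level rest on these same libraries. By the fixed pattern the counts were 9 higher and 3 lower with a box, and 4 higher and 13 lower without. No gene with a box passed the adjusted threshold in either direction, so these counts describe the listed genes and rest on no test of the group. The table also lists 24 genes with at least 3 fingers under other names. By the fixed pattern 22 of them have no KRAB box, 5 higher and 17 lower. The other 2 have it, 1 higher and 1 lower.

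Genes with and without a KRAB box also differed in base composition. Transcript GC content had a median of 43.6% in the 15 genes with a box and 49.0% in the 14 without. It was 54.5% in the 22 finger genes under other names without a box by the fixed pattern. Over the whole table, higher genes had a median of 49.0% and lower genes 51.9%. Among genes below 45% GC, 8 of 9 with a box, 2 of 4 without a box and 61.2% of 467 other rows were higher in the authors' deposited table. At 45% or more, 3 of 6 with a box, 0 of 10 without a box and 40.2% of 1857 other rows were higher. These counts use the wider pattern, chosen after the values were seen. By the fixed pattern Zfp108 (49.1% GC) and Zfp213 (59.5% GC), both higher, would count as genes without a box. The part of base composition in the split was not tested beyond these counts.

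**Figure D2:**
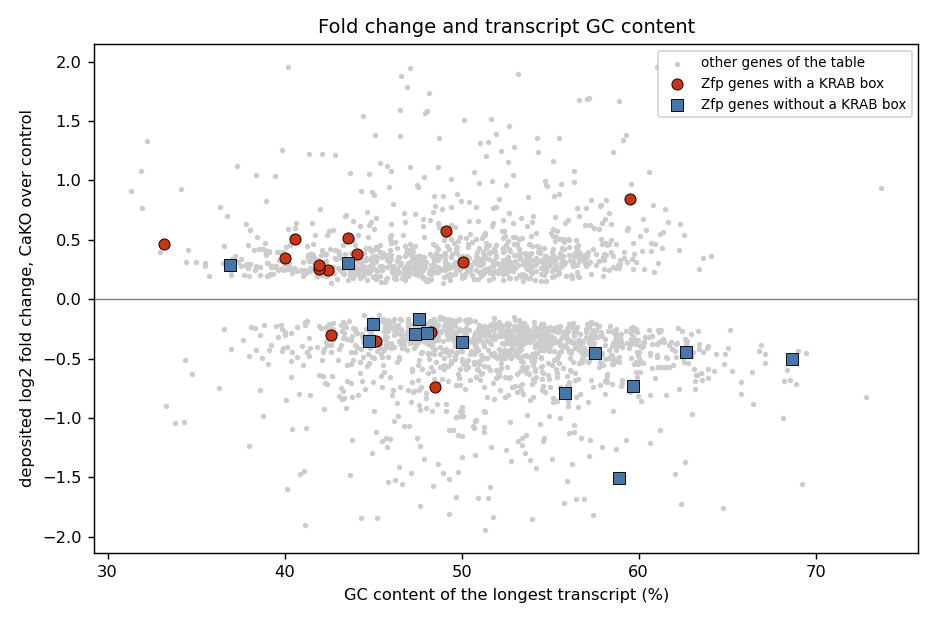
Deposited log2 fold change (vertical) against the GC content of each gene's longest transcript in percent (horizontal), for Zfp genes with a KRAB box (red circles), Zfp genes without it (blue squares) and other genes of the table (grey). Of 2324 other genes, 118 with an absolute log2 fold change above 2 lie outside the axis. All 10 Zfp genes without a box by the wider pattern at 45% GC or more lie below 0. Zfp108 and Zfp213, both higher and above 45% GC, have a box by that pattern only.

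Zfp408 had the smallest p among the members. Its human counterpart is mutated in inherited disease of the retina and its vessels. The gene (ENSMUSG00000075040.9, chromosome 2: 91643669 to 91649791, minus strand) had normalised counts of 90.5, 97.2, 56.7 and 57.3 in CaKO replicates 1 to 4, a mean of 75.4 ± 21.4 (SD, n = 4). Replicates 3 and 4 were low and replicates 1 and 2 high, and all 4 lay below the control level of 130.2 that the deposited fold implies. The authors' deposited table gives a log2 fold change of -0.79 (SE 0.21, implied by its p), a 1.73-fold fall with an adjusted p of 0.0153. The call ended without replicate 3 (log2 fold change -0.67) and without replicate 4 (-0.68).

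Zfp768, the other gene that fell, varied less. Its human counterpart is known to bind repeat-derived DNA. The gene (chromosome 7: 127342795 to 127345589, minus strand) had normalised counts of 63.3, 68.1, 59.6 and 71.9 in replicates 1 to 4, a mean of 65.7 ± 5.37 (SD, n = 4). The 4 libraries lay close together and all below the implied control level of 109.1. The authors' deposited table puts it at -0.73 on the log2 scale (SE 0.21, adjusted p = 0.0275), a 1.66-fold fall. The call ended without replicate 1 (-0.71) and without replicate 3 (-0.69), although the fold moved little.

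Both genes encode 10 fingers and no KRAB box. The coding sequence of the first finger is shown for them and for Zfp771, the neighbour of Zfp768, to show what the count of fingers rests on. Capitals mark the codons of the zinc-binding cysteines and histidines.
Zfp408, exon 5, chr2:91646010-91646072, minus strand: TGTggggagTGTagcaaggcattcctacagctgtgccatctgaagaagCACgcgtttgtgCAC
Zfp768, exon 2, chr7:127344031-127344093, minus strand: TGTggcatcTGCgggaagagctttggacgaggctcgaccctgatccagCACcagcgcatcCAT
Zfp771, exon 3, chr7:127253856-127253918, plus strand: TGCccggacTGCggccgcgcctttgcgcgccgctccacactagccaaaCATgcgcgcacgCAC
Zfp771 (chromosome 7: 127244274 to 127254803) lies 88.0 kb from Zfp768 with no Zfp gene between them. It had normalised counts of 702.5, 610.2, 376.8 and 678.4 in replicates 1 to 4, with replicate 3 far below the others. The authors' deposited table puts its log2 fold change at -0.50 (adjusted p = 0.0667), and it was -0.34 without replicate 3.

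The remaining genes without a KRAB box include regulators that are well known outside the KRAB family. The largest fold was that of Zfp524, a finger protein whose human counterpart binds telomeric DNA. Its normalised counts were low, at 8.04, 4.01, 1.99 and 10.4 in replicates 1 to 4. The authors' deposited table gives a log2 fold change of -1.51 with an adjusted p listed as 1. The gene Gm44973, on the same strand, covers 46.5% of the exons of Zfp524. How reads of the shared bases were assigned is not known here, so the low counts need not give the level of Zfp524. Zfp385a, an RNA- and p53-binding protein known for carrying mRNA into neuronal dendrites, had 487.5, 492.0, 372.8 and 650.2 normalised counts. Its replicates 3 and 4 were the low and the high end, and the authors' deposited table puts its log2 fold change at -0.44 (adjusted p = 0.130). The authors' deposited table puts its relative Zfp385b at -0.29 (adjusted p = 0.0852), with libraries from 490.8 to 601.0 normalised counts.

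Zfp462, a large chromatin protein needed for normal development, encodes 33 fingers, the most of any member. It had 635.2, 552.1, 514.0 and 571.0 normalised counts, highest in replicate 1. The authors' deposited table puts it at -0.29 (adjusted p = 0.127). Zfp143, an activator that binds many promoters including those of small nuclear RNA genes, had 132.7, 124.2, 111.3 and 109.4 normalised counts, all below its implied control level of 152.8. By the authors' deposited table it was at -0.36 (adjusted p = 0.227). Zfp366, a nuclear receptor corepressor of dendritic cells, and Zfp362 stand in the authors' deposited table at -0.36 and -0.45 (adjusted p = 0.202 and 0.216). Zfp362 varied widely, with 307.5, 228.4, 134.2 and 208.4 normalised counts, so that replicate 1 lay above the implied control level of 300.6. Zfp318, which controls transcript choice at the immunoglobulin heavy chain locus in B cells, stands at -0.21 in the authors' deposited table, with an adjusted p of 0.245.

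The most abundant member encodes no C2H2 finger by the pattern. Zfp365 (chromosome 10: 67886103 to 67912662) is a coiled-coil protein that binds DISC1 and acts in neurite growth. Its mean was 2623 normalised counts per kb of exon, against a median of 51.0 over the 29 genes and 103.1 over all rows. Its libraries held 15431, 13242, 12835 and 13104 normalised counts, with replicate 1 above the other 3 and just above the implied control level of 15347. The authors' deposited table gives -0.17 (adjusted p = 0.284), the smallest log2 fold change in size among the members.

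**Figure D3:**
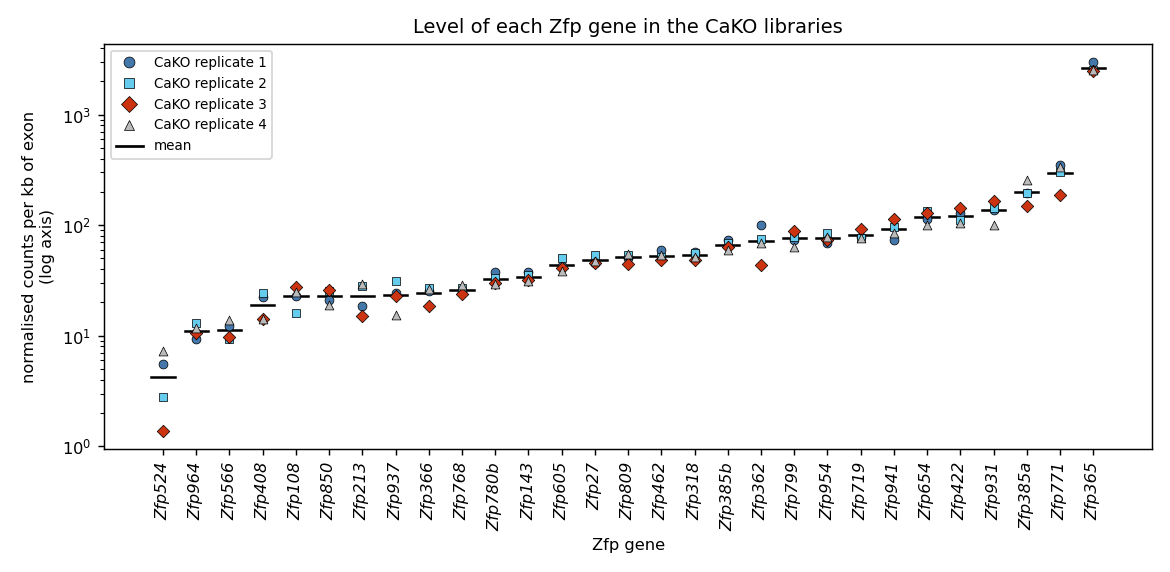
Normalised counts per kb of exon (log axis) in each of the 4 CaKO libraries (symbols) and their mean (bars) for the 29 Zfp genes, ordered by mean. Means run from 4.26 for Zfp524 to 2623 for Zfp365.

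Per kb of exon, the next levels after Zfp365 were those of Zfp771 (294.7), Zfp385a (199.0), Zfp931 (136.2), Zfp422 (122.2) and Zfp654 (119.1). From Zfp771 down this order, the ranges of each 2 neighbours over the 4 libraries overlapped, while all libraries of Zfp365 lay above the rest. Genes with a box had a median of 43.2 normalised counts per kb and genes without it 59.6. The coefficient of variation over the 4 libraries had a median of 14.02% over the members, and it was 13.1% over all rows.

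Among genes with a KRAB box, the largest positive fold change was that of Zfp213. It had 50.3, 76.1, 40.8 and 79.2 normalised counts in replicates 1 to 4, and replicates 1 and 3 were low. All 4 libraries lay above the implied control level of 34.4. The authors' deposited table puts it at 0.84 on the log2 scale (SE 0.29, adjusted p = 0.0799). The non-coding gene Gm26695, on the opposite strand, covers 46.5% of the exons of Zfp213. Whether counting used strand is not given in the sources used here, so reads of the 2 genes cannot be told apart.

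The next fold changes were close to one another. Zfp108 had 62.3, 44.1, 74.6 and 67.7 normalised counts, and the authors' deposited table puts its log2 fold change at 0.58 (adjusted p = 0.239). Zfp964 had 70.4, 98.2, 80.5 and 88.6 normalised counts, all above its implied control level of 59.2, and stands at 0.51 by the authors' deposited table (adjusted p = 0.216). Zfp937, with 68.3, 88.2, 63.6 and 42.7, is also put at 0.51 by the authors' deposited table (adjusted p = 0.309). Replicate 4 of Zfp937 lay below its implied control level of 46.2. These genes are weakly expressed KRAB proteins with 9 to 14 fingers.

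Higher counts stood behind Zfp931 and Zfp941. Zfp931 had 316.6, 328.6, 377.8 and 229.2 normalised counts, with replicate 3 the highest and replicate 4 the lowest. The authors' deposited table puts it at 0.47 (adjusted p = 0.186). Over 227 bases it is 98.2% identical to Gm14325, which could share its reads. Zfp941 had 344.7, 454.9, 539.8 and 400.1 normalised counts, with replicate 3 again the highest. The authors' deposited table puts it at 0.38 (adjusted p = 0.154), and the value was 0.26 without replicate 3. Over 253 bases Zfp941 is 100% identical to Gm45785, which could share its reads. Gm45785 lies on the same strand and covers 5.32% of the exons of Zfp941. The KRAB genes Zfp954, Zfp799 and Zfp719 stand at 0.32, 0.25 and 0.24 in the authors' deposited table, with adjusted p from 0.253 to 0.285. Of the 2 higher genes without a box, the authors' deposited table puts Zfp422, a 5-finger protein known from tooth development, at 0.31 (adjusted p = 0.213) and Zfp654 at 0.28 (adjusted p = 0.271).

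The 4 KRAB genes that were lower were Zfp566, Zfp809, Zfp605 and Zfp27. Zfp809, which recruits TRIM28 to the primer binding site of murine leukaemia viruses, had 150.8, 158.3, 131.2 and 163.6 normalised counts. All 4 libraries were below its implied control level of 193.0, and the authors' deposited table puts it at -0.35 (adjusted p = 0.187). Zfp566 had only 21.1, 16.03, 16.9 and 23.97 normalised counts, and Gm26920 on the same strand covers 17.9% of its exons. The authors' deposited table gives it -0.74 with an adjusted p listed as 1. Zfp605 and Zfp27 stand in the authors' deposited table at -0.30 and -0.28 (adjusted p = 0.276 and 0.288).

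Chromosome 7 held 12 of the 29 members (41.4%), against 23.4% of the 394 annotated Zfp genes and 8.43% of all rows. On it, 6 of the 8 genes with a KRAB box by the wider pattern were higher in the authors' deposited table. All 4 without it (Zfp768, Zfp771, Zfp143 and Zfp524) were lower. By the fixed pattern Zfp108, which was higher, would join the genes without a box. Members within 250 kb of each other formed 3 pairs, all on chromosome 7, and each pair shared its direction. Zfp780b and Zfp850 are 5.68 kb apart on the same strand and are put at 0.28 and 0.35 by the authors' deposited table (adjusted p = 0.262 and 0.270). Zfp27 and Zfp566, 170.8 kb apart with 5 other Zfp genes between them, were both lower, as were Zfp771 and Zfp768.

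The libraries of the pair Zfp780b and Zfp850 did not run in parallel. Zfp780b had 347.8, 303.6, 274.4 and 269.9 normalised counts in replicates 1 to 4, highest in replicate 1. Zfp850 had 129.7, 155.3, 161.0 and 117.8, highest in replicate 3. Neither gene had a copy at 98% identity or more over at least 200 bases and 50% of either transcript.

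The bases upstream of their starts are shown because the neighbours share direction, beside those of Zfp385a, a lower gene without a box. The bases are from RefSeq promoter windows (GRCm38.p6), trimmed to end at the base before the gene as GENCODE M21 annotates it, and capitals mark every CG.
Zfp780b, chr7:27979172-27979407, minus strand: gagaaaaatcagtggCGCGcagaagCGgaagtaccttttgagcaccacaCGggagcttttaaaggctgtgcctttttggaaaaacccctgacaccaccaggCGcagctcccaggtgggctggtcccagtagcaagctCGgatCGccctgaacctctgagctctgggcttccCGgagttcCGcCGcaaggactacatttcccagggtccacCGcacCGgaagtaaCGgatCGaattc
Zfp850, chr7:28014116-28014365, minus strand: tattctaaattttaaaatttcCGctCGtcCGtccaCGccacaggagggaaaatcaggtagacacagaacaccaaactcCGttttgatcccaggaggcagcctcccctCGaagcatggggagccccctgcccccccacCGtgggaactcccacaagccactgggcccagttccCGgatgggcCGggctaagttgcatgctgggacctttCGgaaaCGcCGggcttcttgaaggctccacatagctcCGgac
Zfp385a, chr15:103340094-103340336, minus strand: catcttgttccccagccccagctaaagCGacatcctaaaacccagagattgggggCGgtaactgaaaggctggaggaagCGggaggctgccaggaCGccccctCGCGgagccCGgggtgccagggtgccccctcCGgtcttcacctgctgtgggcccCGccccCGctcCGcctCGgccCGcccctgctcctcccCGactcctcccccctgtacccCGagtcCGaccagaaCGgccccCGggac
These runs hold 14, 13 and 18 CG pairs. In windows of 250 bases upstream of the RefSeq start, found for 24 of the 29 genes, the median number of CG pairs was 9 in the 15 genes with a KRAB box and 19 in the 9 without, against 6 over 32851 promoters. The GC box GGGCGG, searched on both strands, was in 2 of the 15 and 7 of the 9, and in 32.7% of all promoters. The CCAAT box, letters CCAAT on both strands, was in 9 of the 15 and 3 of the 9, and in 33.85% of all promoters. The TATA box, the cAMP response element and ETS, YY1, ZNF143 and NRF1 motifs were searched too. Each was in 0 to 2 of the 24 windows, and in 0.30% to 12.4% of all promoters. These matches describe the letters of the window and are not binding sites.

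Genes that work with KRAB proteins gave no call. Of 48 corepressor and heterochromatin genes, TRIM28 included, 4 were listed in the authors' deposited table, 2 higher and 2 lower, and none passed the adjusted threshold. The authors' deposited table puts the histone chaperones Rbbp4 and Rbbp7 at 0.17 and 0.16 (adjusted p = 0.313 and 0.251), the deacetylase complex subunit Mta1 at -0.31 (adjusted p = 0.244) and the histone gene H3f3a at -0.38 (adjusted p = 0.145). The other 44 have no value here, and with so few genes the lack of a call says little about the 48. Over all protein-coding genes 8.90% were listed. Of the 12938 genes in the authors' adjustment, 1.27% rose and 1.97% fell. The same shares stand beside the next list. Of 151 zinc finger genes of other families, 15 were listed, 4 higher and 11 lower. Their median log2 fold change was -0.44. Klf4 alone passed there, for which the authors' deposited table gives -1.19 (adjusted p = 0.0157).

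CaKO replicate 3 most often lay at the far end from the control level. It was the lowest of the 4 libraries for 11 of the 16 lower members and the highest for 7 of the 13 higher ones. Over all rows, it was the lowest for 55.2% of lower genes and the highest for 47.9% of higher genes. Without it, by an approximation from the deposited values, 8 of the 29 members kept a p below 0.05 (27.6%), against 58.9% of all rows. Without replicates 1, 2 and 4 the members that kept it numbered 24, 20 and 22. The lower precision of 3 libraries by itself would have left 21 (72.4%), against 79.3% of all rows. Zfp408, Zfp768, Zfp385b, Zfp462, Zfp780b, Zfp954, Zfp964 and Zfp213 were the 8, and all 29 members held their direction with each library left out. Listing at a p below 0.05 made a change of direction unlikely beforehand.

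**Figure D4:**
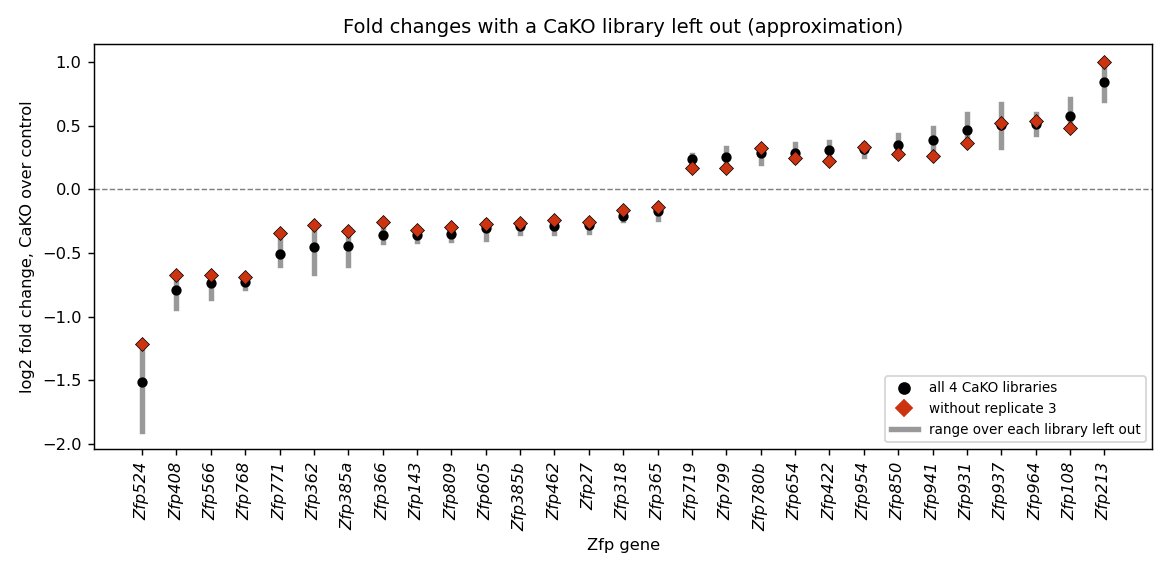
Log2 fold change, CaKO over control, of each Zfp gene with all 4 CaKO libraries (black), without replicate 3 (red diamonds) and over each library left out in turn (grey range), by the approximation. The red diamond lies closer to 0 than the black point for all 16 lower genes.

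Other facts of the libraries bear on these genes. The CaKO libraries held 2832931 to 3183638 reads over the listed rows, and total depth is unknown. None of the rows overlapped Gpr158, so loss of the targeted transcript was not checked. Of short marker lists, the authors' deposited table lists 7 of 7 for mature oligodendrocytes and 3 of 6 for astrocytes. It also lists 2 of 4 for endothelium, 4 of 6 for excitatory neurons and 3 of 3 for blood. All of these were lower, and none of 5 for microglia and 6 for interneurons was listed. At an adjusted p below 0.05, 4 oligodendrocyte, 2 astrocyte, 1 endothelial, 1 excitatory neuron and 1 blood marker fell. Over all protein-coding genes 8.90% were listed, and 1.97% of the 12938 genes fell. The part of these cell types in the Zfp values was not tested.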

How the data were processed

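Poly-A RNA from the mPFC of 4 CaKO and 4 control mice was sequenced as 100 bp paired-end reads, per the labels' protocols, and each library is 1 mouse. TopHat2 2.0.12 (alignment to GRCm38) and HTSeq 0.6.1 (counting per gene) are given in the design text, and the submitters' processing notes also name DESeq2 1.30.1, without a role. The deposited CaKO values are a normalised signal, and they behave as counts divided by 1 factor per library: 100% of them were whole multiples of one step (0.994 to 1.04) within 0.01, whatever the gene's length, although the table is named for FPKM. The log2 fold changes, p-values and adjusted p-values are the authors', as deposited. Adjusted values follow Benjamini-Hochberg over 12938 genes, and 325 rows with an adjusted p of 1 were taken as left out of it.

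Values of the control libraries were not analysed here, so the planned limma fit was not run and the authors' adjusted p (threshold 0.05) decided which genes "rose" or "fell". Implied control levels are the CaKO mean divided by the deposited fold, and SEs are the fold change divided by the normal quantile of its p. Leaving out a library recomputed the fold against that level and widened the SE for 3 libraries, and a call was kept at a p of at most 0.00162. This was run on simulated data with the same spread for every gene and no selection by p. There the fold is recovered by construction, and the approximate p was not checked for genes selected by p. Rows were named by exact position (2266 of 2372), and 89 more by 80% mutual overlap served as an alternative. Fingers and KRAB boxes were counted in GENCODE coding sequences translated here, in place of the RefSeq proteins planned. Copies were searched with BLAST 2.17.0. Genes named with values were the called ones, the 6 highest and 6 lowest folds, the 6 highest levels per kb, the one without a finger and neighbours within 250 kb. The other 10 were added so that each of the 29 is accounted for. The members and lists were chosen with earlier results of these data known.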

Additional observations from a re-analysis of the deposited data

Results flagged for a closer look

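In 2 of the 29 Zfp genes, a CaKO library stood apart from the other 3. For Zfp365 it was the highest, replicate 1, whose gap to the next library was 0.843 of the whole range. For Zfp719 it was replicate 3, also the highest, at 0.891 of the range. Both passed Dixon's limit for 4 samples, which chance passes in about 1 in 20 groups. Without replicate 1 the log2 fold change of Zfp365 was -0.23, and without replicate 3 that of Zfp719 was 0.17.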

How the results depend on the processing

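No paired analysis was possible because the control libraries have no values here to share a replicate number with. No direction of a member changed under any library left out, which the listing at a p below 0.05 made likely beforehand. With each CaKO library left out in turn, 0 to 2 of the 2 falls stayed called, and an approximate p below 0.05 was kept by 4 to 11 of the 13 higher members and 4 to 14 of the 16 lower ones. With a KRAB box by the fixed pattern, 3 to 8 of 9 higher and 0 to 2 of 3 lower members kept that p, and without it 1 to 3 of 4 higher and 4 to 12 of 13 lower ones. The lowest counts are those without replicate 3. Without replicate 2, 6 higher members kept that p, 3 of them with a box. At an adjusted p threshold of 0.1, 1 gene rose (Zfp213) and 4 fell, and at 0.01 there were 0 falls. Taking every row with 3 or more C2H2 fingers, 1 rose, 34 were lower, and 9 higher and 30 lower had no box. The wider pattern left 2 higher genes without a box. The median log2 fold change (-0.21) ran from -0.34 to -0.16. Depth limits Zfp524 and Zfp566 most, both under 50 normalised counts.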
